A study of Mus musculus with 10 samples.

Results

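Gene expression was compared between 6 libraries labelled as metastatic melanoma cells from lymph nodes and 4 labelled as primary melanoma cells from skin. Together these are all 10 libraries of the series. The names are those of the labels, and in each primary library keratinocyte markers exceeded melanocyte markers, as given below. The mice had a mixed C57BL/6:SV129 background. Cells of fresh tumours were sorted by flow cytometry on GFP, and each library held either GFP-positive cells, labelled c-Myc-high, or GFP-negative cells, labelled c-Myc-low. The primary libraries were 2 c-Myc-high and 2 c-Myc-low, and the metastatic libraries were 3 c-Myc-high and 3 c-Myc-low. Membership followed the tissue given in the labels, and the comparison ran across 16805 genes that passed the expression filter of 34162 gene names, with the c-Myc class as a covariate. The labels name neither the alleles that gave rise to the tumours nor the design of the GFP reporter, and they give no age. They mention collection in triplicate, whereas 2 libraries per primary group were analysed here. Nothing in them ties a replicate to its own animal, and p-values here speak to the spread between libraries alone, which may be technical. Single libraries are called primary-high, primary-low, metastatic-high and metastatic-low below, by site, c-Myc class and replicate number.

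Melanoma arises from melanocytes, the pigment cells that in skin sit among keratinocytes. Keratinocytes build the epidermis from keratin filaments tied together at desmosomes, and as they mature they form a cornified envelope of cross-linked proteins such as filaggrin. A lymph node, the usual first stop of melanoma cells that leave the skin, is filled with B and T lymphocytes on a scaffold of stromal cells, and is crossed by blood and lymphatic vessels. Melanocytes carry their own programme, in which the transcription factors Mitf and Sox10 drive the enzymes and the matrix protein of the melanosome, the organelle in which melanin is made.

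Libraries held 1602569 to 6844152 estimated counts in total, which did not differ detectably between sites (metastatic minus primary 457500, exact two-sided permutation p = 0.62 over 100 arrangements within class, of which the smallest possible p is 0.01). In 1500000 counts drawn from each library, a mean of 14980 genes was detected in primary and 16810 in metastatic libraries, a difference of 1821 (exact permutation p = 0.03). The p was 0.05 or higher when any one of the 4 primary libraries, or metastatic-low 1 or 2, was left out, and reached 0.075 without primary-high 1. The labelled cell type was checked against markers on the length-scaled RPKM values (reads scaled to transcript length and library size). Summed over 22 melanocyte genes, RPKM was 17.3 to 382.2 (median 101.8) in primary and 324.3 to 3127 (median 610.2) in metastatic libraries. Summed over 20 keratinocyte genes, it was 1840 to 8135 (median 4786) in primary and 5.19 to 33.6 (median 19.71) in metastatic libraries. Keratinocyte RPKM exceeded melanocyte RPKM in 4 of 4 primary and in 0 of 6 metastatic libraries. Leukocyte and B cell transcripts were in turn summed at 10.69 to 1062 and 10.92 to 828.5 RPKM in the metastatic libraries, against at most 26.81 and 2.402 RPKM in the primary ones. Libraries are named by their sort label throughout, which Myc did not follow among the primary libraries: the library labelled primary-high 2 had less Myc (104 CPM) than both labelled primary-low (162 and 318 CPM), and in the metastatic libraries the classes overlapped. Of all pairs of libraries, metastatic-high 2 and metastatic-low 3 were the most alike (Pearson r = 0.918 across genes), although they carry different class labels, and an alternative chosen after the data had been seen left out both. Salivary gland genes stood apart in metastatic-high 1 and 3. In bulk RNA, fewer cells of a type and less RNA per cell cannot be told apart, and the part of these cell mixtures in the differences below was not tested.

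Between the sites, 1123 genes were higher and 908 lower in metastatic libraries at a Benjamini-Hochberg adjusted p under 0.05 in edgeR's quasi-likelihood test, which is 6.68% and 5.4% of the genes tested and 12.1% together. Here a gene that passed is said to have risen or fallen, fold changes are metastatic over primary on the log2 scale with their standard errors, and levels are CPM, counts scaled to the size of the library, and not to gene length. The median log2 fold change of all genes was 0.22. Of the genes that passed, 692 of those higher and 669 of those lower had no overlap between the 6 metastatic and the 4 primary libraries, and among all genes tested 5.73% lay wholly above and 5.06% wholly below. The number of higher genes depended on single libraries: it was 719 and 676 without primary-high 1 or 2, 462 and 680 without primary-low 1 or 2, and 649 without metastatic-low 2. The number of lower genes stayed between 625 and 926 when any 1 library was left out.

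**Figure D1:**
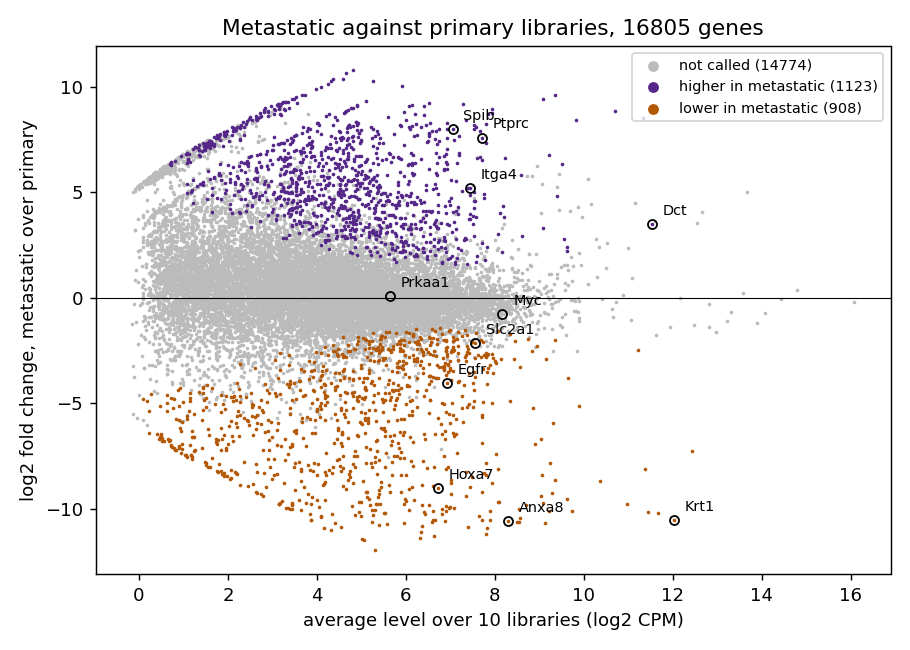
Log2 fold change of metastatic over primary libraries (vertical) against the average log2 CPM over 10 libraries (horizontal), with 1 point per gene for the 16805 genes tested. The 1123 higher genes are purple, the 908 lower genes orange and the rest grey, and circles mark genes of the text, with Krt1 at -10.51 and Ptprc at 7.59.

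Genes were grouped on 54 lists of cell type markers and pathways, which were drawn up with earlier results of these data known. The share of list members that passed is to be read against 6.68% higher and 5.4% lower over all genes. The cornified envelope list had 37 of 38 tested members lower, the keratinocyte list 18 of 20, and the desmosome and cell junction list 19 of 27. The B cell list had 17 of 18 members higher, the T cell list 17 of 22, the pan-leukocyte list 15 of 19 and the MHC class II list 9 of 12. Calls on the lists depended on the tool: the higher or lower count moved by over 1.5 times on 24 of 54 lists by DESeq2 and on 31 by limma-voom, mostly to more calls, and on 25 without the most alike pair, mostly to fewer. By contrast, oxidative phosphorylation (median -0.07), cytosolic ribosomal proteins (-0.16) and DNA replication (0.18) had 0 members past edgeR's threshold. At an unadjusted p under 0.05 these lists had 0, 0 and 2 members. By DESeq2 they had 0, 0 and 2 past its threshold, and by limma-voom 0, 1 and 2. Of the genes that passed 302 were on a list, and 958 higher and 771 lower genes were on none of them.

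**Figure D2:**
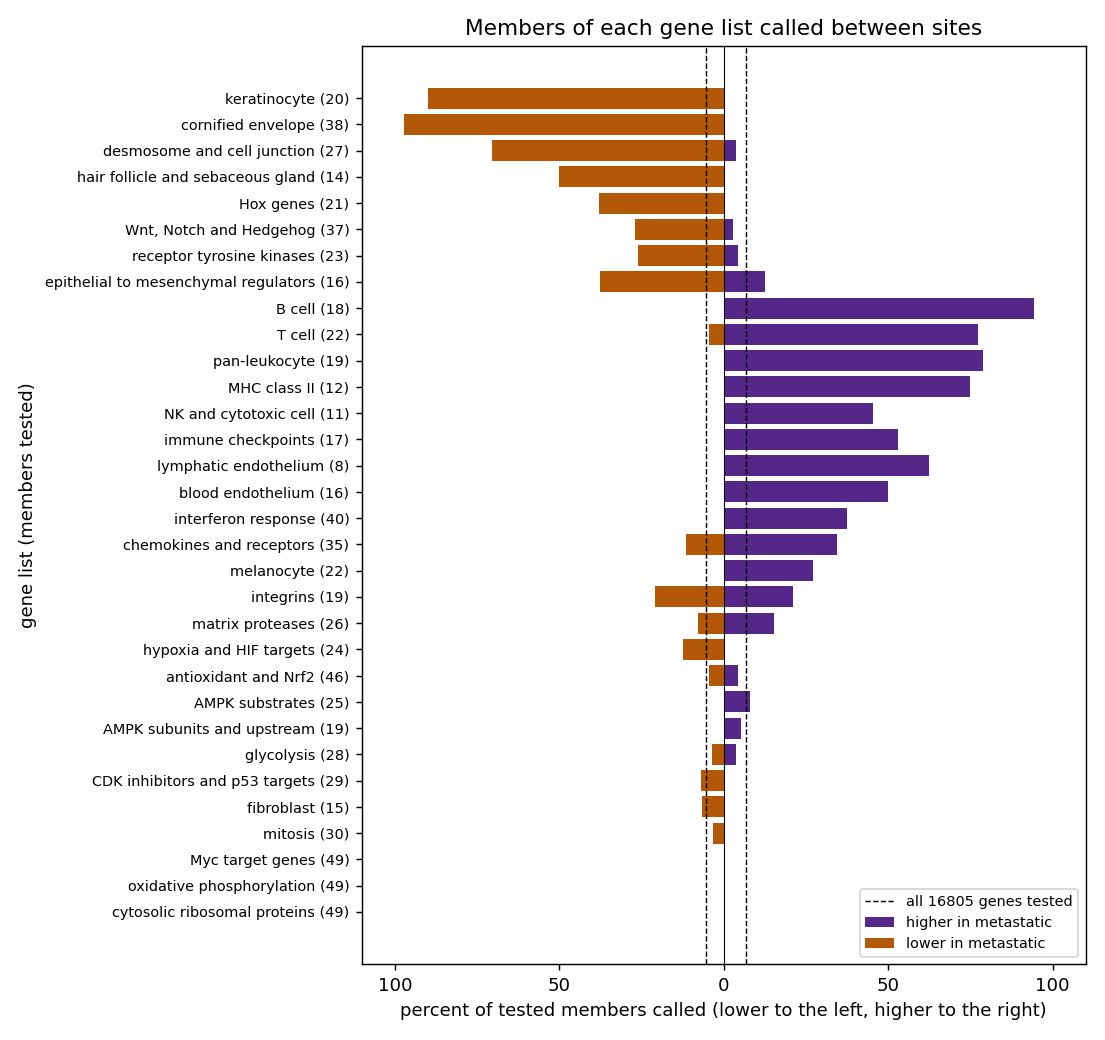
Percent of the tested members of 32 lists that passed the test (horizontal), lower to the left in orange and higher to the right in purple, with members tested in brackets. Dashed lines mark 5.4% lower and 6.68% higher over all genes; epidermal lists extend to the left, lymphocyte lists to the right, and the Myc target, oxidative phosphorylation and ribosomal protein lists have no bar.

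Most tested keratins, the intermediate filament proteins of epithelia, fell. Krt1, the type II keratin of differentiating epidermis (chr15:101845426-101850794, minus strand, GRCm38), was at 15610 and 7141 CPM in primary c-Myc-high and 12840 and 5911 CPM in primary c-Myc-low libraries, and at 4.38 to 10.7 CPM (median 6.06) in metastatic ones. All 6 metastatic libraries lay below all 4 primary ones, and the log2 fold change was -10.51 ± 0.75 (edgeR adjusted p = 4.33e-06). Krt5 and Krt14 form the filament pair of the basal layer. Krt14 (chr11:100203162-100207548, minus strand) ranged from 991 to 13210 CPM in primary and from 4.04 to 8.69 CPM (median 4.89) in metastatic libraries, without overlap (log2 fold change -9.75 ± 0.86, adjusted p = 1.62e-05 by edgeR). Krt5 had a log2 fold change of -10.15 ± 0.89 (edgeR adjusted p = 1.62e-05). Krt79, of the hair follicle and sebaceous duct, was at 93.3 to 393 CPM in primary and at most 0.807 CPM in metastatic libraries (edgeR adjusted p = 1.79e-05), and 7 of 14 tested hair follicle and sebaceous gland genes fell. Of the type I keratin cluster on chromosome 11, 9 of 12 tested genes fell and none rose, and of the type II cluster on chromosome 15, 12 of 16 fell and none rose. The keratinocyte list summed to 32070 to 105400 CPM in primary and 62.17 to 1158 CPM in metastatic libraries, and 17 to 18 of its 20 members passed when any 1 library was left out.

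A pair of promoter windows from this group is printed because both belong to genes that fell without overlap. Krt10, the type I partner of Krt1, was picked for its printed promoter after its values had been seen. It was at 1102 and 20660 CPM in primary c-Myc-high and 8147 and 2421 CPM in primary c-Myc-low libraries and at 2.76 to 30.7 CPM (median 3.67) in metastatic libraries (log2 fold change -10.21 ± 1.11, adjusted p = 6.57e-05 by edgeR). The 250 bases upstream of its RefSeq start (GRCm38.p6) hold a TATA box, TATAAA in capitals, 26 bases before the start. Serpinb5, which encodes maspin, a serpin of epithelial cells, has a match to the loose AP-1 pattern TGANTCA 140 bases before its start. In that pattern N is any base. The match reads TGAATCA, with A in the middle, and is not taken as an AP-1 site here. Searched on both strands, TATAAA occurs in 12.4% and TGANTCA in 6.75% of 32851 RefSeq windows, and no share was set against the gene sets, since only 61.8% of the genes tested have a window. A match is a description and is no evidence of binding.
Krt10 (chr11:99389365-99389614, minus strand): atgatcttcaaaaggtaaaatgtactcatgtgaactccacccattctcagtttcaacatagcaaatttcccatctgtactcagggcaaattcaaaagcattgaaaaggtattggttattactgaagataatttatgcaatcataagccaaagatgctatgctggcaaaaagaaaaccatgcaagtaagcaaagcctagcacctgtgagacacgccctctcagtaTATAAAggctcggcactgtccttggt
Serpinb5 (chr1:106860925-106861174, plus strand): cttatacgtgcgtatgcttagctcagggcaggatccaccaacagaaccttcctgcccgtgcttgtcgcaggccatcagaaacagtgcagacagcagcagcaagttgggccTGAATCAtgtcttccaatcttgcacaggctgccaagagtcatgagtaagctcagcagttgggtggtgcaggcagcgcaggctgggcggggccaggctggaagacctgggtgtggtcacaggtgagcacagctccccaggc

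Serpinb5 itself (chr1:106861173-106883348, plus strand) was at 1140 and 885 CPM in primary c-Myc-high and 1678 and 1723 CPM in primary c-Myc-low libraries and at 0.766 to 2.44 CPM (median 1.41) in metastatic libraries, with no overlap (log2 fold change -9.73 ± 0.62, adjusted p = 3.19e-06 by edgeR). Serpinb5 sits in a cluster of clade B serpins on chromosome 1, of which 9 of 10 tested genes fell. Serpinb3b, one of several copies of like sequence between which counts may be split, was not counted in any metastatic library and ranged from 64.8 to 136 CPM in primary ones. Against the floor of 3 counts over the 6 metastatic libraries, it was at least 1131-fold lower (edgeR adjusted p = 0.000121). Anxa8, a calcium-dependent membrane-binding annexin (chr14:34085981-34100571, plus strand), ranged from 573 to 1013 CPM in primary and 0 to 1.29 CPM (median 0.459) in metastatic libraries (log2 fold change -10.58 ± 0.66, adjusted p = 3.19e-06 by edgeR). The host transcript of mmu-mir-205 (chr1:193507238-193510174, minus strand) spans 2937 bases of the genome, with exons of 450 and 1662 bases. This transcript was at 169.5 and 68.1 CPM in primary c-Myc-high and 79.5 and 25.4 CPM in primary c-Myc-low libraries, and at no more than 0.538 CPM in metastatic ones (edgeR adjusted p = 3.64e-05). It was chosen after its values were seen, and the pooled ratio, resting on 3 metastatic counts, was 947-fold with a 95% exact interval of 323 to 4595 that covers counting error only. The count is of the long host RNA and not of the mature microRNA, whose sequence is printed from RefSeq with its seed, bases 2 to 8, in capitals, because the hairpin lies in the last exon.
mmu-miR-205-5p (chr1:193507503-193507524, minus strand): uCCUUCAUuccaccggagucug

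**Figure D3:**
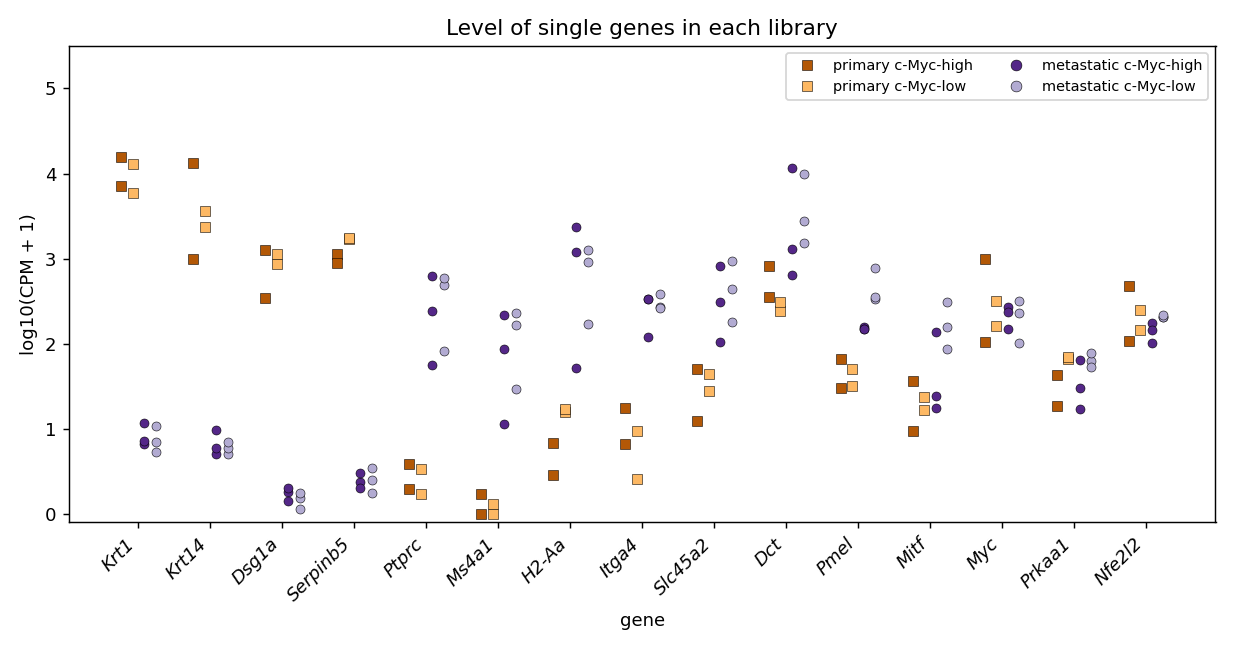
Level of 15 genes as log10(CPM + 1) (vertical), with 1 point per library: squares are primary and circles metastatic libraries, dark c-Myc-high and light c-Myc-low. Krt1, Krt14, Dsg1a and Serpinb5 are lower in each metastatic than in each primary library, Ptprc and Ms4a1 are higher, and Myc and Prkaa1 overlap.

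Barrier proteins were also lower. The cornified envelope list summed to 3841 to 8283 CPM in primary and 8.934 to 56.66 CPM in metastatic libraries, and 31 to 38 members fell when any 1 library was left out. Its median log2 fold change was -9.20, against 0.22 for all genes. Flg, which encodes filaggrin, was at 22.6 to 614 CPM in primary libraries and was counted in 1 metastatic library only (edgeR adjusted p = 4.03e-05). Casp14, a protease that processes filaggrin, was at 32.9 to 335 CPM in primary and at most 0.255 CPM in metastatic libraries (adjusted p = 1.73e-05 by edgeR). Elovl4, which makes the very long fatty acids of barrier lipids, had a log2 fold change of -10.09 ± 0.71 (edgeR adjusted p = 4.33e-06). Late cornified envelope genes fell in 12 of 13 and small proline-rich genes in 10 of 11 tested members of their chromosome 3 clusters, members that share sequence and whose counts may be split. S100a14, a calcium-binding protein of epithelia, was at 82.8 to 1563 CPM in primary and at most 1.02 CPM in metastatic libraries (edgeR adjusted p = 4.45e-05). Desmosomal cadherins fell in 6 of 8 members. Dsc1 was at 157 to 396 CPM in primary and at most 0.257 CPM in metastatic libraries, and Dsg1a at 343 to 1259 CPM and 0.129 to 1.02 CPM (median 0.623) (edgeR adjusted p = 4.33e-06 and 4.33e-06). Col17a1, the hemidesmosomal collagen, fell likewise (log2 fold change -9.41 ± 0.86, adjusted p = 1.84e-05 by edgeR), and Perp, a p53 target found at desmosomes, had a log2 fold change of -8.70 ± 1.27 (edgeR adjusted p = 0.00079).

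Among transcription factors of the epidermis, Foxn1, needed for hair and keratinocyte differentiation, was at 8.64 to 65.6 CPM in primary libraries and was counted in 1 metastatic library only (edgeR adjusted p = 9.76e-05). Klf4, a factor of barrier formation, had a log2 fold change of -3.20 ± 0.61 (edgeR adjusted p = 0.00465). Grhl1, a grainyhead factor of epithelia, had a log2 fold change of -6.43 ± 0.92 and Esrp2, an epithelial splicing regulator, one of -5.02 ± 1.02 (edgeR adjusted p = 0.000661 and 0.00664). On the list of epithelial to mesenchymal regulators 6 of 16 members fell and 2 rose. Without metastatic-low 1 or 2, 3 fell, and 1 rose without primary-low 1 or 2, metastatic-high 3 or metastatic-low 2. Zeb1, a repressor of epithelial genes, was one of those that rose. It was at 0.933 to 17 CPM in primary and 56.8 to 231 CPM (median 133) in metastatic libraries, without overlap (log2 fold change 3.94 ± 0.79, adjusted p = 0.0061 by edgeR). Hox genes encode factors of body position. Of 21 tested, 8 fell and none rose, 5 to 10 when any 1 library was left out, 5 without primary-low 1. Hoxa7 (chr6:52214491-52221854, minus strand) was at 855 and 42 CPM in primary c-Myc-high and 94.6 and 57.5 CPM in primary c-Myc-low libraries and at most 0.511 CPM in metastatic libraries (edgeR adjusted p = 0.000125). Hoxc13, a factor of hair keratin genes, was at 1.2 to 27.1 CPM in primary libraries and was counted in 1 metastatic library (edgeR adjusted p = 0.00464). The members that fell were in the Hoxa (4 of 7) and Hoxc (4 of 5) clusters. None of 8 Hoxb genes passed, but all had negative log2 fold changes (-5.57 to -0.66, median -3.05). Of the 21 Hox genes tested, 19 had negative and 2 positive log2 fold changes. At an unadjusted edgeR p under 0.05, 15 were lower and 1 was higher.

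Of 37 Wnt, Notch and Hedgehog genes 10 fell, and 7 to 10 fell when any 1 library was left out. The ligand Wnt3 was at 7.2 to 60.7 CPM in primary and at most 0.204 CPM in metastatic libraries, and the receptor Fzd10 at 18.9 to 37.9 CPM and at most 0.257 CPM (edgeR adjusted p = 0.000188 and 0.000291). Notch3, a receptor of mural cells and epidermis, had a log2 fold change of -4.38 ± 0.61 (edgeR adjusted p = 0.000541). The 1 member that rose was Lef1, a factor of Wnt signalling, and 4 and 2 rose without metastatic-high 1 and 3. Of 23 receptor tyrosine kinases 6 fell and 1 rose, with 3 lower without primary-low 1, and 2 or 3 higher without primary-high 1 or 2, metastatic-high 2 or metastatic-low 3. Egfr was at 286 and 222 CPM in primary c-Myc-high and 198 and 403 CPM in primary c-Myc-low libraries and at 6.25 to 38.4 CPM (median 9.58) in metastatic libraries, without overlap, and its log2 fold change was -4.05 ± 0.64 (edgeR adjusted p = 0.00135). The receptor Fgfr3 also fell (log2 fold change -3.75 ± 0.48, edgeR adjusted p = 0.000245). Sdc1, a proteoglycan of epithelia and also of plasma cells, and the heat shock protein Hspb1 fell (-5.76 ± 0.66 and -4.20 ± 0.59, edgeR adjusted p = 9.55e-05 and 0.000612). Among chemokines, Ccl27a, the keratinocyte chemokine that draws T cells to skin, had a log2 fold change of -6.44 ± 0.77 (edgeR adjusted p = 0.000141).

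Ptprc, which encodes CD45, the phosphatase on the surface of leukocytes (chr1:138062861-138175708, minus strand), was at 2.88 and 0.933 CPM in primary c-Myc-high and 0.723 and 2.31 CPM in primary c-Myc-low libraries and at 55.7 to 620 CPM (median 363) in metastatic ones. The lowest metastatic library was above the highest primary library, and the log2 fold change was 7.59 ± 1.03 (edgeR adjusted p = 0.00045). B cell genes had a median log2 fold change of 7.94 on a list of 18 tested members, of which 17 rose (15 to 18 when any 1 library was left out). The list summed to 14.59 to 26.01 CPM in primary and 310.4 to 7213 CPM in metastatic libraries, and 1 member was at 0 in every primary library. Ms4a1, which encodes CD20 (chr19:11249675-11266241, minus strand), was at 0 to 0.72 CPM in primary and 10.2 to 226 CPM (median 125) in metastatic libraries (log2 fold change 8.71 ± 1.35, adjusted p = 0.00125 by edgeR). The transcription factor Mef2c rose without overlap (6.09 ± 0.75, edgeR adjusted p = 0.00019). Cd38, a surface enzyme of lymphocytes, was at 0 to 0.933 CPM in primary and 31.1 to 114 CPM (median 50.4) in metastatic libraries (edgeR adjusted p = 0.000452). Spib, a factor of B cells, had a log2 fold change of 7.98 ± 0.96 and Ikzf1, a zinc finger factor of lymphocytes, one of 8.18 ± 1.22 (edgeR adjusted p = 0.000165 and 0.000957).

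T cell genes rose in 17 of 22 members, 8 to 18 when any 1 library was left out, and 1 fell. The list summed to 189.4 to 750 CPM in primary and 107.4 to 1487 CPM in metastatic libraries, which overlapped. The member that fell, named after its values were seen, was Bcl11b, a T lineage factor also made in epidermis (log2 fold change -5.24 ± 1.03, adjusted p = 0.00556 by edgeR). The count was 10 without primary-high 1 or 2 and 8 without primary-low 1. Without the most alike pair of libraries it was 8 of 21. Lck, a kinase of the T cell receptor, was at most 0.867 CPM in primary libraries and 6.89 to 103 CPM (median 43) in metastatic ones (edgeR adjusted p = 0.00271). Rasgrp2, a Rap1 activator of lymphocytes and platelets, was counted in 1 primary library and was at 12.8 to 316 CPM (median 43.9) in metastatic ones, a pooled ratio of 1703-fold with a 95% exact interval of 306 to 67300 for counting error only. Ccl5, a chemokine of T cells, was at 0 to 0.289 CPM in primary and 8.42 to 119 CPM (median 30.2) in metastatic libraries (edgeR adjusted p = 0.00108). Ctla4, an inhibitory receptor of T cells, was not counted in any primary library and was at 1.53 to 71.5 CPM (median 31.3) in metastatic ones, at least 199-fold higher against a floor of 3 counts over the primary libraries (edgeR adjusted p = 0.00461).

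Ly86, which binds a toll-like receptor relative on B cells, and Cd40, the receptor of T cell help, were also at 0 in every primary library, and were at least 267-fold and 142-fold higher in metastatic ones (edgeR adjusted p = 0.00677 and 0.00797). MHC class II genes, with which antigen is shown to CD4+ T cells, rose in 9 of 12 members, and in 5 to 10 when any 1 library was left out, 5 without primary-high 2. The class II list summed to 9.328 to 1101 CPM in primary and 414.7 to 18690 CPM in metastatic libraries, which overlapped. H2-Aa, one of the class II alpha chains, was at 1.87 to 16.2 CPM in primary and 50.6 to 2367 CPM (median 1045) in metastatic libraries (log2 fold change 6.76 ± 1.21, adjusted p = 0.00324 by edgeR). Ciita, the coactivator of the class II genes, had a log2 fold change of 6.55 ± 1.25 (edgeR adjusted p = 0.00474). MHC class I genes had a median log2 fold change of 0.39, with 1 of 19 members higher (5.26% against 6.68% over all genes). That member, a nonclassical class I gene, was H2-M3, at 0.24 to 6.65 CPM in primary and 2.04 to 115 CPM (median 33.9) in metastatic libraries; its call (adjusted p = 0.0423 by edgeR) was lost without any one of 8 of the 10 libraries, all but metastatic-high 3 and metastatic-low 1 (adjusted p 0.0215 to 0.119).

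Other leukocyte lists moved less evenly. Macrophage and monocyte genes rose in 2 of 18 members (11.1% against 6.68% over all genes), and neutrophil genes in 6 of 10. The neutrophil count was 0 without primary-high 1 or primary-low 1, 2 without primary-high 2 or metastatic-high 2, and 3 without metastatic-low 3, and the macrophage count was 1 without any one of the 4 primary libraries or metastatic-low 1 or 2. Summed CPM was 140.9 to 227.4 in primary and 83.39 to 14050 in metastatic libraries for the neutrophil list, which overlapped, and 8.161 to 193.1 and 198.5 to 1038 for the macrophage list, which did not. Without the most alike pair, 15 of 17 B cell, 5 of 12 MHC class II and 0 of 10 neutrophil genes rose. Immune checkpoint genes, whose products restrain or, for some members, aid T cell activation, rose in 9 of 17 members, and in 5 without primary-high 2, primary-low 1 or 2, metastatic-high 2 or metastatic-low 2 or 3.

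**Figure D4:**
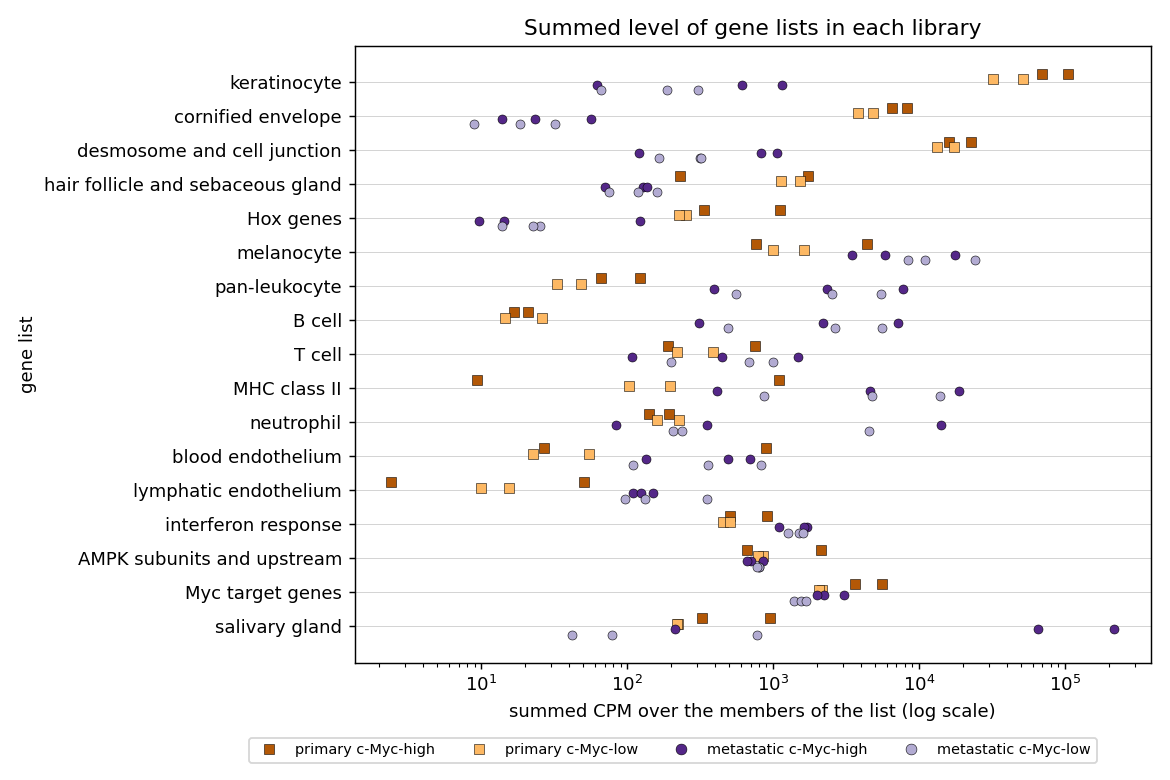
Summed CPM on a log axis (horizontal) of 17 lists (vertical), with 1 point per library: squares are primary and circles metastatic libraries, dark c-Myc-high and light c-Myc-low. Keratinocyte sums are at least 32070 CPM in primary and at most 1158 CPM in metastatic libraries, B cell sums are at most 26.01 and at least 310.4 CPM, and the T cell sums overlap.

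Blood endothelial genes rose in 8 of 16 members, and in 4 or 5 without any one of the 4 primary libraries, metastatic-high 2 or metastatic-low 2 or 3. The blood endothelial list summed to 22.55 to 887.3 CPM in primary and 110 to 820.1 CPM in metastatic libraries, which overlapped. Its highest sum was in primary-high 1. Lymphatic endothelial genes rose in 5 of 8, and in 3 without primary-high 2, primary-low 1 or 2 or metastatic-low 2. Pecam1, the endothelial junction protein CD31, was at 1.2 to 4.62 CPM in primary and 33.2 to 373 CPM (median 105) in metastatic libraries (log2 fold change 5.89 ± 0.95, adjusted p = 0.00157 by edgeR). Flt4, the receptor of lymphatic growth factors, was at most 0.933 CPM in primary libraries and 6.99 to 30.2 CPM (median 15.8) in metastatic ones (edgeR adjusted p = 0.00851). The call of Prox1, the lymphatic identity factor (log2 fold change 4.67 ± 1.11, edgeR adjusted p = 0.0154), was lost without primary-low 2 or metastatic-low 2 (highest adjusted p 0.0755).

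Chemokine receptors and related receptors that guide leukocytes included Cxcr4, which rose (log2 fold change 7.75 ± 1.04, adjusted p = 0.000415 by edgeR), S1pr1, which lets lymphocytes leave nodes and also rose (6.43 ± 0.95, edgeR adjusted p = 0.000849), and Ccr7, which draws cells into nodes and rose too (8.12 ± 1.60, edgeR adjusted p = 0.00556). Chemokine genes as a list rose in 12 and fell in 4 of 35 members. Without primary-high 1 or 2, 7 rose, without primary-low 1, 6 rose, and without primary-low 1 or 2, 2 fell. Of 19 integrins 4 rose and 4 fell. Itga4, the alpha chain of VLA-4 (chr2:79255426-79333123, plus strand), was at 16.3 and 5.6 CPM in primary c-Myc-high and 1.57 and 8.38 CPM in primary c-Myc-low libraries and at 118 to 378 CPM (median 299) in metastatic libraries, with no overlap (log2 fold change 5.20 ± 0.76, adjusted p = 0.000769 by edgeR). Itgb3 and Itga1 also rose (6.85 ± 1.17 and 4.57 ± 0.79, edgeR adjusted p = 0.00238 and 0.00257), whereas those that fell included Itgb4, of the hemidesmosome. Without primary-high 1, 2 fell.

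Interferon genes, which cells switch on in response to interferon, summed to 456.1 to 907.3 CPM in primary and 1098 to 1699 CPM in metastatic libraries. Of 40 members 15 rose, 8 without primary-high 1 or 2 or metastatic-low 2, 9 without metastatic-low 1 and 6 without primary-low 1. They held Gbp4, a guanylate-binding protein (log2 fold change 5.72 ± 0.85, adjusted p = 0.000907 by edgeR). Ifit3, an interferon target, was at 0 to 0.289 CPM in primary and 6.19 to 24.6 CPM (median 13) in metastatic libraries (edgeR adjusted p = 0.00278). Its relative Ifit2 was at 0 in every primary library and at 1.61 to 37.8 CPM (median 16.4) in metastatic ones, at least 94.4-fold higher against the floor (edgeR adjusted p = 0.00624).

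Matrix genes moved in both directions. Of 26 matrix proteases and their inhibitors 4 rose and 2 fell, with 2 higher without primary-low 1 or 2 or metastatic-low 2. Fibroblast markers fell in 1 of 15 members (6.67% against 5.4% over all genes). It was Postn, which encodes periostin (log2 fold change -3.82 ± 0.71, adjusted p = 0.004 by edgeR). The fibroblast list summed to 1864 to 6123 CPM in primary and 99.8 to 1184 CPM in metastatic libraries, without overlap. Its median log2 fold change was -1.02, and -1.87 to 2.04 when any 1 library was left out. Of 24 collagens 2 rose and 2 fell (16.67% together against 12.1% over all genes). They summed to 1649 to 6365 CPM in primary and 405.7 to 1597 CPM in metastatic libraries, also without overlap. Col4a2, a basement membrane collagen, rose (3.63 ± 0.72, adjusted p = 0.00586 by edgeR). Mmp13, a collagenase, was at 23.3 to 341 CPM in primary and at most 1.84 CPM in metastatic libraries (edgeR adjusted p = 0.00254). Serpine2, an inhibitor of serine proteases, rose (3.38 ± 0.68, edgeR adjusted p = 0.00651), as did Plaur, the urokinase receptor (5.14 ± 1.08, edgeR adjusted p = 0.00785).

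On the melanocyte list, 22 of 22 tested members had a positive log2 fold change (median 2.34), but only 6 passed, among them Dct, Pmel, Slc45a2, Rab27a and Cdh19. The count was 2 without primary-low 1 or 2, 12 without primary-high 1, 10 without metastatic-high 2, 15 by DESeq2, and 10 without the most alike pair of libraries (chosen after the data had been seen). The list summed to 762.1 to 4416 CPM in primary and 3495 to 24130 CPM in metastatic libraries, and the ranges overlapped. Dct, dopachrome tautomerase of the melanin pathway (chr14:118012790-118052244, minus strand), was at 815 and 353 CPM in primary c-Myc-high and 242 and 306 CPM in primary c-Myc-low libraries and at 643 to 11530 CPM (median 2140) in metastatic libraries, which overlapped (log2 fold change 3.50 ± 0.97, adjusted p = 0.0316 by edgeR). Its call was lost without any one of the 4 primary libraries, metastatic-high 3, or metastatic-low 1 or 2 (log2 fold change 2.50 to 3.82, adjusted p 0.0181 to 0.125), and also without the 2 libraries richest in salivary transcripts (adjusted p = 0.143). Slc45a2, a melanosome transporter (chr15:11000721-11029233, plus strand), did not overlap: 11.2 to 49.2 CPM in primary and 104 to 939 CPM (median 376) in metastatic libraries (log2 fold change 3.83 ± 0.78, adjusted p = 0.00664 by edgeR). Pmel, the melanosome fibril protein, had a log2 fold change of 2.57 ± 0.60 (edgeR adjusted p = 0.0145), lost without primary-low 1 or 2 (highest adjusted p 0.0783). Cdh19, a cadherin of the neural crest (chr1:110888326-110977584, minus strand), rose (4.69 ± 0.99, edgeR adjusted p = 0.00811). Schwann cells also make Cdh19, and the Schwann cell list summed to 388.1 to 780 CPM in primary and 228.5 to 1881 CPM in metastatic libraries, with 2 of 12 members higher and 1 lower. Those higher, named after their values were seen, were S100b and Cnp, with log2 fold changes of 4.56 ± 1.32 and 4.43 ± 1.03 (edgeR adjusted p = 0.0387 and 0.0139). Which cells they came from was not tested. The call of S100b was lost without any one of 7 libraries, all but metastatic-high 1 and 2 and metastatic-low 3 (adjusted p 0.0168 to 0.129). It was also lost without the 2 libraries richest in salivary transcripts (log2 fold change 2.74, edgeR adjusted p = 0.351). On the Schwann cell list 1 member was higher without primary-high 2, primary-low 1 or 2, metastatic-high 3 or metastatic-low 1 or 2. The melanocyte regulators Mitf and Sox10 did not pass with all 10 libraries (2.26 ± 0.82 and 1.96 ± 0.94, edgeR adjusted p = 0.092 and 0.208), nor did Tyr, the first enzyme of melanin synthesis (2.32 ± 0.76, edgeR adjusted p = 0.0657). Without primary-high 1 all 3 passed, at log2 fold changes of 2.98, 3.82 and 3.10 (edgeR adjusted p = 0.0486, 0.00139 and 0.0374), and Tyr also without metastatic-high 2. DESeq2 called Mitf and Tyr, and limma-voom all 3.

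Promoters of Dct and Tyrp1 are printed because both hold the M-box core TCATGTG, a motif bound by Mitf. Tyrp1, a melanosome enzyme, was chosen after its values were seen; it was at 137 to 1159 CPM in primary and 1477 to 5996 CPM (median 2644) in metastatic libraries, without overlap, and did not pass with all 10 libraries (log2 fold change 2.34 ± 0.77, adjusted p = 0.0638 by edgeR). It passed without primary-high 1 (log2 fold change 3.40, edgeR adjusted p = 0.00728), by DESeq2 and by limma-voom. The core stands 232 bases (reverse strand) and 151 bases before the start of Dct and 47 bases before that of Tyrp1, in capitals, in windows of RefSeq, GRCm38.p6. The core occurs on either strand in 3.25% of 32851 windows, and says nothing about binding here. The Krt10 window printed above also holds it, unmarked, and Krt10 fell.
Dct (chr14:118052247-118052496, minus strand): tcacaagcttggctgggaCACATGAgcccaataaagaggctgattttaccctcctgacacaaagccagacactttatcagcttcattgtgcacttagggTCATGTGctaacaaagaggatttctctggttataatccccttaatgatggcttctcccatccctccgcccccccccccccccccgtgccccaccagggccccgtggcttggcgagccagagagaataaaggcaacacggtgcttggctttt
Tyrp1 (chr4:80833963-80834212, plus strand): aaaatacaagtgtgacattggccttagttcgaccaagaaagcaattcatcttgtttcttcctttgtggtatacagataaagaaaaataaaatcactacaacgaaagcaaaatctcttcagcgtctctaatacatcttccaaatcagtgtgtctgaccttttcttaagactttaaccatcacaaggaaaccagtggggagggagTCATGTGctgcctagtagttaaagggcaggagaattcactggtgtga

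Myc, the gene named in the sort and the title (chr15:61985391-61990374, plus strand), did not differ detectably between sites. It was at 997 and 104 CPM in primary c-Myc-high and 162 and 318 CPM in primary c-Myc-low libraries and at 101 to 317 CPM (median 232) in metastatic libraries, and the groups overlapped (log2 fold change -0.77 ± 0.62, edgeR adjusted p = 0.49). The sign turned to 0.14 without primary-high 1. Of 49 Myc target genes 0 passed in edgeR, with 0 higher and 6 lower at an unadjusted p under 0.05, 0 higher and 3 lower by DESeq2, and 0 higher and 4 lower by limma-voom. Without primary-high 2 or metastatic-high 3, 1 fell. In the wider Myc and MAX network, Mlxip, a glucose-sensing partner of Mlx, was the 1 of 10 that rose (2.21 ± 0.65, edgeR adjusted p = 0.0424), a call lost without any library but metastatic-high 3 or metastatic-low 1 (adjusted p 0.0327 to 0.118). The study's title concerns AMPK, the kinase complex that senses low energy. The catalytic subunits Prkaa1 and Prkaa2 had log2 fold changes of 0.10 ± 0.53 and 1.49 ± 1.18 and the regulatory subunits Prkab1 and Prkag1 of -1.01 ± 0.78 and 0.33 ± 0.61, with edgeR adjusted p of 0.935, 0.486, 0.47 and 0.792. The 4 subunits overlapped between sites. On the list of AMPK subunits and upstream genes (median -0.02) 1 of 19 rose, Sesn3, a stress-induced activator of AMPK (3.20 ± 0.82, edgeR adjusted p = 0.0216; lost without primary-low 1 or 2 or metastatic-low 1 or 2, adjusted p 0.0147 to 0.0731). On this list 2 were higher without metastatic-high 3 and 1 was lower without primary-high 2 or metastatic-high 2, and DESeq2 found 4 higher and 3 lower. Among AMPK substrates 2 of 25 rose: Ppargc1a, the mitochondrial coactivator (4.59 ± 1.01, edgeR adjusted p = 0.0102, lost without the 2 libraries richest in salivary transcripts, adjusted p = 0.128), and Tbc1d4 (3.17 ± 0.91, edgeR adjusted p = 0.0369), lost without any one of 7 libraries, all but metastatic-high 1 and 3 and metastatic-low 3 (adjusted p 0.0337 to 0.107). The count of higher substrates was 1 without any one of the 4 primary libraries, metastatic-high 2 or metastatic-low 1 or 2, with 1 lower without primary-high 1, and DESeq2 found 5 higher and 2 lower. Beside 12.1% of all genes in edgeR, 10% of the Myc and MAX network passed. So did 5.26% of AMPK subunit and upstream genes and 8% of AMPK substrates.

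Of 46 oxidative stress genes 2 rose and 2 fell (median 0.41). Without primary-high 1, 4 rose, without primary-low 1 or 2 none did and 1 fell, without metastatic-low 1 or 2, 1 rose and 1 fell, and without primary-high 2 or metastatic-low 3, 1 fell. There were 8 higher and 4 lower by DESeq2, and 10 and 4 by limma-voom. Nfe2l2, which encodes the stress factor Nrf2, had a log2 fold change of -0.51 ± 0.52 (edgeR adjusted p = 0.597). The ferritin chains Ftl1 and Fth1, which store iron, rose (3.50 ± 0.82 and 2.40 ± 0.67, edgeR adjusted p = 0.0145 and 0.0326). Ftl1 lost its call without primary-low 1 or 2, and Fth1 without those, primary-high 2, or metastatic-low 1 or 2 (adjusted p 0.00892 to 0.0561 and 0.00869 to 0.134); Fth1 also lost it without the 2 salivary-rich libraries (0.0592). Both have near-identical pseudogene copies, between which reads may be split. Abcc1, which exports glutathione conjugates, fell (-3.18 ± 0.78, edgeR adjusted p = 0.0178; 0.0579 without the 2 salivary-rich libraries). Its highest level was in primary-high 1, without which the log2 fold change was -1.95. Prdx5, a peroxidase, fell (-1.59 ± 0.46, adjusted p = 0.0393 by edgeR), a call lost without any one of 7 libraries, all but primary-high 1 and metastatic-high 2 and 3 (adjusted p 0.0262 to 0.183). Of 28 glycolysis genes 1 rose and 1 fell, 7.14% together against 12.1% over all genes. They were the glucose transporters Slc2a3, which rose, and Slc2a1, which fell. By limma-voom 3 were higher and 7 lower, by DESeq2 3 and 2, and 2 were lower without primary-high 2 or metastatic-high 3. Slc2a1 was at 194 to 531 CPM in primary and 60.9 to 106 CPM (median 67.4) in metastatic libraries, without overlap (log2 fold change -2.16 ± 0.45, adjusted p = 0.00741 by edgeR). The change of Slc2a3 (4.75 ± 1.28, edgeR adjusted p = 0.028) lost its call when any one of the 4 primary libraries or metastatic-low 2 or 3 was left out (adjusted p 0.0103 to 0.0721). Of 24 hypoxia genes 3 fell, among them Egln3, an oxygen-sensing prolyl hydroxylase (-3.79 ± 0.73, edgeR adjusted p = 0.00474), and its relative Egln1 (-1.47 ± 0.45, edgeR adjusted p = 0.0469), the call of which was lost without any library but primary-high 1 and metastatic-high 2 (adjusted p 0.0281 to 0.15). Egln1 also lost its call without the 2 salivary-rich libraries (edgeR adjusted p = 0.0782). Of 29 CDK inhibitor and p53 target genes 2 fell, Perp and Cdkn1a, and 1 rose without primary-low 2. Cdkn1a encodes the CDK inhibitor p21 (-2.09 ± 0.56, edgeR adjusted p = 0.0266; lost without primary-low 1 or metastatic-low 3, adjusted p 0.0112 to 0.117). Of 30 mitosis genes 1 fell, the spindle checkpoint kinase Ttk (-2.25 ± 0.65, edgeR adjusted p = 0.0383), lost without any library but metastatic-high 2 and 3 (adjusted p 0.0207 to 0.1). Beside 12.1% of all genes, the shares that passed in either direction were 8.70% of oxidative stress and 12.5% of hypoxia genes. They were 6.90% of CDK inhibitor and p53 target genes and 3.33% of mitosis genes.

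Genes on none of the lists included 4 with clear separation. St6gal1, a sialyltransferase, was at 4.56 to 8.09 CPM in primary and 55.2 to 203 CPM (median 149) in metastatic libraries (log2 fold change 4.53 ± 0.59, adjusted p = 0.000269 by edgeR). Itpr1, a calcium release channel, was at 1.87 to 7.22 CPM and 105 to 195 CPM (median 117) (log2 fold change 4.64 ± 0.60, adjusted p = 0.000269 by edgeR). Plxnd1, a semaphorin receptor, and Gcnt1, a glycosyltransferase, rose without overlap (4.91 ± 0.67 and 4.53 ± 0.62, edgeR adjusted p = 0.000467 and 0.000452). Salivary gland genes stood apart in 2 libraries: their summed CPM was 217600 in metastatic-high 1 and 65300 in metastatic-high 3, and at most 945.9 elsewhere. Bpifa2, a salivary protein, reached 98670 CPM in metastatic-high 1 and did not pass in edgeR (adjusted p = 0.131), though it did in DESeq2. Of 27 tested salivary genes 7 rose, which were 4 Klk1b kallikreins and 3 Dcpp genes, families of near-identical copies, and 2 fell, among them Prom2, named after its values were seen (log2 fold change -4.98 ± 1.32, edgeR adjusted p = 0.0261). The higher count was 0 without primary-high 1, 1 without primary-high 2, 2 without metastatic-high 1, 3 without primary-low 1 or metastatic-low 2, 4 without primary-low 2, 11 without metastatic-high 2, and 0 of 19 without metastatic-high 1 and 3 together. The lower count was 0 without primary-low 1 or metastatic-low 2, and 1 without primary-high 1, primary-low 2 or metastatic-low 1 or 3. Without metastatic-high 1 and 3, 1240 genes were higher and 919 lower. Their part in other differences was not tested.

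The site effect was compared between c-Myc classes, since the covariate assumes that it is the same in both. By edgeR's interaction test 0 of 16805 genes passed (796 higher and 354 lower at an unadjusted p under 0.05), whereas DESeq2 called 80. Across all 16805 genes the site effects fitted within the 2 classes had a Pearson r of 0.651 and a Spearman rho of 0.552, across genes that are not independent replicates. Fitted on the c-Myc-high libraries alone, 6 genes were higher and 149 lower, and on the c-Myc-low libraries alone 1160 and 1116. Krt1 had a log2 fold change of -10.57 in the c-Myc-high and -10.45 in the c-Myc-low class, and Ptprc one of 7.16 and 8.03. For Dct the values were 2.94 and 4.10.

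**Figure D5:**
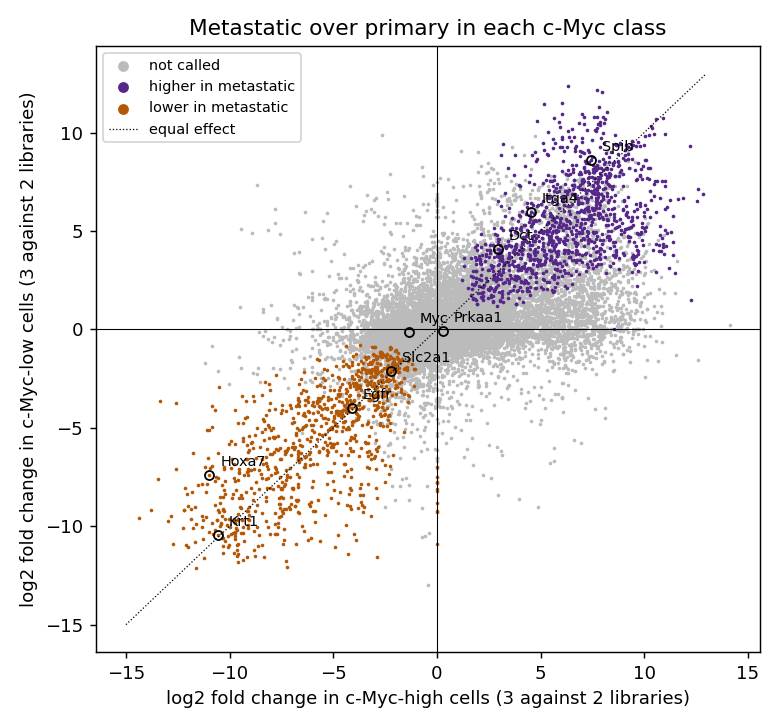
Log2 fold change of metastatic over primary libraries in the c-Myc-high class (horizontal) against the c-Myc-low class (vertical), 3 against 2 libraries each, with 1 point per gene for the 16805 genes tested. Purple genes are higher and orange genes lower in the fit of all 10 libraries, the dotted line marks equal effects, and a column of orange points at 0 holds genes with a fitted effect of 0 in the c-Myc-high class.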

How the data were processed

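The authors deposited estimated counts per transcript without scaling, and RPKM values scaled to transcript length and library size. Bowtie2, limma and the mm10 build appear without versions in the submitters' processing notes. How reads were assigned to transcripts, with which annotation and whether by strand, is not given in the sources used here. The 92214 transcript rows were summed by gene name to 34162 genes and rounded.

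After edgeR's expression filter and TMM scaling, robust quasi-likelihood tests (edgeR 4.0.16, R 4.3.3) of site with c-Myc class as covariate were fitted over all 10 libraries. Benjamini-Hochberg adjustment ran over all genes tested. The common biological coefficient of variation was 0.906. Standard errors were derived from the F statistic. Alternatives used DESeq2 1.42.0 and limma 3.58.1. Fits were tested on simulated counts. Exact intervals and floors of 3 counts rest on counts pooled over libraries. They cover counting error only and leave out the spread between libraries. The RNA was amplified without molecular identifiers being named. Coordinates and promoter windows are from GENCODE M21 (95.69% of deposited transcripts found) and RefSeq GRCm38.p6.

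Genes were named by rule: Myc, Nfe2l2, Ptprc, Krt14, 4 pigment genes and 4 AMPK subunits; in each direction, up to 12 of the largest changes past the threshold and up to 10 of the lowest p on no list, both with average log2 CPM above 2 and no overlap, and up to 3 per list by lowest p, with the first 2 of each cell type list. Krt10, Tyrp1, mmu-mir-205, Lef1, Itgb4, Rab27a, Bcl11b, S100b, Cnp and Prom2 were named after their values had been seen. The comparison, lists and members were chosen with earlier results of these data known.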

Additional observations from a re-analysis of the deposited data

Results flagged for a closer look

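Within each site, the gap between the highest or lowest library and its nearest neighbour was divided by the range of that site on log2(CPM + 1), over 316 sets of values. A ratio above 0.829 for the 4 primary libraries or 0.625 for the 6 metastatic libraries marks a library that stands apart, which chance gives in about 1 in 20 groups. Of the 316 sets, 22 were marked, to be read against that rate, which is a rough guide only. Both c-Myc classes are pooled within a site. Sets at 0 in every library of a site, such as Ctla4 in the primary libraries, could not be marked but are among the 316. For Lck, Rasgrp2, Foxn1, Flg and Hoxc13 all other libraries of the site were at 0. This fixes the ratio at 1.0 whatever the count, so the rate does not apply to them.

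Among the primary libraries, 4 per set, the values were as follows. Krt79 stood apart in primary-high 2, the lowest at 93.3 CPM against 347.5 in the nearest library (gap ratio 0.914). Mef2c lay away from the others in primary-high 2, the lowest at 0.933 CPM against 3.12 in the nearest library (gap ratio 0.844). Lck was set apart by primary-low 2, the highest at 0.867 CPM against 0 in the nearest library (gap ratio 1.0). Ciita stood apart in primary-low 2, the highest at 3.47 CPM against 0.933 in the nearest library (gap ratio 0.878). Rasgrp2 lay away from the others in primary-low 2, the highest at 0.289 CPM against 0 in the nearest library (gap ratio 1.0). Prkab1 was set apart by primary-high 1, the highest at 215.5 CPM against 24.8 in the nearest library (gap ratio 0.888). Abcc1 stood apart in primary-high 1, the highest at 1591 CPM against 192.5 in the nearest library (gap ratio 0.869). The interferon response list lay away from the others in primary-high 1, the highest at 907.3 summed CPM against 504.6 in the nearest library (gap ratio 0.853). The MAPK output list was set apart by primary-high 1, the highest at 3385 summed CPM against 1131 in the nearest library (gap ratio 0.908). The glycolysis list stood apart in primary-high 1, the highest at 3219 summed CPM against 1815 in the nearest library (gap ratio 0.89). The Wnt, Notch and Hedgehog list lay away from the others in primary-high 1, the highest at 2747 summed CPM against 1503 in the nearest library (gap ratio 0.881).

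Among the metastatic libraries, 6 per set, they were these. Krt10 stood apart in metastatic-high 3, the highest at 30.7 CPM against 3.87 in the nearest library (gap ratio 0.878). Foxn1 lay away from the others in metastatic-low 3, the highest at 0.184 CPM against 0 in the nearest library (gap ratio 1.0). Flg was set apart by metastatic-high 3, the highest at 0.511 CPM against 0 in the nearest library (gap ratio 1.0). Hoxc13 stood apart in metastatic-low 1, the highest at 0.128 CPM against 0 in the nearest library (gap ratio 1.0). Mef2c lay away from the others in metastatic-high 3, the lowest at 40.9 CPM against 143.1 in the nearest library (gap ratio 0.627). Itga4 was set apart by metastatic-high 1, the lowest at 117.6 CPM against 258 in the nearest library (gap ratio 0.673). Mmp13 stood apart in metastatic-low 3, the highest at 1.84 CPM against 0.269 in the nearest library (gap ratio 0.772). Itpr1 lay away from the others in metastatic-high 1, the highest at 194.8 CPM against 124.6 in the nearest library (gap ratio 0.728). S100a14 was set apart by metastatic-high 3, the highest at 1.02 CPM against 0.257 in the nearest library (gap ratio 0.675). The lymphatic endothelium list stood apart in metastatic-low 2, the highest at 353.9 summed CPM against 151.2 in the nearest library (gap ratio 0.655). The Hox genes list lay away from the others in metastatic-high 3, the highest at 123.2 summed CPM against 25.4 in the nearest library (gap ratio 0.631).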

How the results depend on the processing

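Of the 90 called genes among the 101 named, 74 passed in all 10 fits that left out 1 library, and 19 under every alternative that tested them; 70 were lost with the c-Myc-high libraries alone. Mitf, Sox10, Tyr and Tyrp1, not called, were called without primary-high 1. The counts higher and lower were 2171 and 1385 by DESeq2, 2437 and 1688 by limma-voom, 710 and 573 by limma-trend on RPKM, 2523 and 1733 with an estimated correlation of same-numbered libraries, 6 and 149 with the c-Myc-high libraries alone, and 585 higher without the most alike pair (chosen after seeing the data); the cause was not tested. Leaving out 1 library gave 462 to 1282 higher and 625 to 926 lower. The interaction test had 80 calls by DESeq2 and 1 without a filter. Genes in drawn counts differed by 1455 to 2217 when 1 library was left out, and by 2190 with 10 or more counts without drawing (exact permutation p = 0.08); total count by -425000 to 1340000; the share of the 3 most abundant genes by -2.315 to 4.57 percentage points.

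The signs of 6 genes that did not pass turned. Myc was 0.00 on RPKM and -1.08 to 0.14 without 1 library. Prkaa1 was -0.13 with libraries summed, -0.15 in c-Myc-low alone, -0.11 in the 8 deepest libraries, -0.26 without the most alike pair and -0.30 to 0.24 without 1 library. Prkaa2 was -0.57 without the libraries richest in salivary transcripts. Prkab1 was 1.04 with the highest transcript row and -1.32 to 0.07 without 1 library. Prkag1 was -0.02 in c-Myc-high alone and -0.08 to 0.58 without 1 library. Nfe2l2 was 0.06 by limma-voom, 0.07 on RPKM, 0.05 with the estimated correlation, 0.01 in c-Myc-low alone and -0.77 to 0.07 without 1 library.

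Same-numbered libraries had correlated deviations of -0.305 to 0.153. With 2 libraries per primary group the deviations mirror each other. Between the primary classes they gave 0.077 for same-numbered and -0.077 for other libraries, which cannot settle pairing. Between the metastatic classes same-numbered libraries had 0.087, -0.193 and -0.305, which does not pair them. Differently numbered ones reached 0.556 (metastatic-high 2 with metastatic-low 3, the most alike pair) and 0.359 (metastatic-high 3 with metastatic-low 1). With the replicate number as a replicate block, 627 genes were higher and 544 lower, and Prkag1 was -0.28. Low depth limits genes near the floor of 3 counts.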
